A study of Mus musculus with 18 samples.

Results

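The replication-dependent histone genes were followed in RNA of mouse splenocytes. They were taken as every gene with an Ensembl mouse identifier whose listed name begins with Hist1h to Hist4h, without the entries marked as pseudogenes by the suffix -ps. This gave 70 genes of the 47729 reference genes in each table, with 6 of class H1, 20 of H2A, 19 of H2B, 12 of H3 and 13 of H4. Of these, 56 lie in the Hist1 cluster on chromosome 13, 11 in Hist2 on chromosome 3, 2 in Hist3 on chromosome 11 and 1 in Hist4 on chromosome 6.

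All 18 libraries came from spleens of C57BL/6J mice that the labels give as female and 4 to 6 weeks old. The 3 N libraries were from naive mice, and the 3 LM libraries from mice given LPPC/mp, a lipid and polymer complex (LPPC) that carried membrane proteins (mp) of dendritic cells. The 6 LMA libraries were labelled LPPC/mp/CD28 and the 6 LMS libraries LPPC/mp/CD152, in which the complex also carried an antibody to CD28, a receptor that stimulates T cells, or to CD152 (CTLA4), one that restrains them. By the study's drawn schedule of RNA collection all treated mice first received LPPC/mp, and LMA and LMS mice then received 1 or 2 doses with antibody and were taken later than LM mice. LMA and LMS therefore differ from LM in dose number and time as well as in the antibody, the labels do not tell 1 from 2 doses, and no source used here states that the libraries of a group came from separate animals. The p-values measure the spread between these libraries.

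Histones are the proteins around which DNA is wound. H2A, H2B, H3 and H4 form the core of the nucleosome and H1 binds the linker DNA between cores. The replication-dependent genes are read mainly in S phase, when new DNA has to be packed, and their mRNAs are unusual in ending in a conserved stem-loop instead of a poly(A) tail. The stem-loop is bound by the protein Slbp, and some members, such as Hist1h1c, can also be polyadenylated and read outside S phase. No source used here gives how the RNA was selected for these libraries, and a measured level of such a gene can depend on that selection as well as on the mRNA in the cell.

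The stem-loops of members that the results turn on, where the motif was found, are shown here to let their ends be compared. They were read from GENCODE M21 transcripts (GRCm38) by searching the transcript strand after the stop codon for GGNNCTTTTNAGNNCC, with 12 bases before and 2 after, and the capitals mark the stem-loop.
Hist1h2ap: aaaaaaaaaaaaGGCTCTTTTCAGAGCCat
Hist1h2ao: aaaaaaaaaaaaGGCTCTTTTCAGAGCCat
Hist1h2ag: atcgccaacaaaGGCTCTTTTCAGAGCCac
Hist1h2ae: aaaaaaaacaaaGGCTCTTTTCAGAGCCat
Hist1h1c: aacaatccaaaaGGCTCTTTTCAGAGCCac
Hist1h2be: tcctaaaccaaaGGCTCTTTTCAGAGCCac
Hist2h3c1: attccccacaaaGGCTCTTTTCAGAGCCac
Hist1h4c: ctgtcaacaaaaGGCCCTTTTCAGGGCCac
Hist1h4i: atgctacttaaaGGCCCTTTTTAGGGCCac
Hist1h4n: ttctcaactaaaGGCCCTTTTCAGGGCCat

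The motif was found in 42 of the 68 members with a transcript in M21, against 0.0875% of all 141767 transcripts. The other 26 annotated transcripts did not hold these letters after the stop codon. Of these, 11 end at the stop codon in the annotation and 2 have no coding sequence. Among the 26 are Hist2h2be, Hist1h2ai, Hist1h2aj and Hist1h2an, which are called in tests below, so no stem-loop is printed for them. The stem-loop began 21 to 58 bases after the stop codon, with a median of 31.5. All 11 H4 genes with the motif had a stem with either GGCC or GGTC at its start, and the 31 genes of the other classes had GGCT. Hist1h2ap and Hist1h2ao were the 2 members with an unbroken run of at least 12 A within 40 bases before the stem-loop. A run of this length anywhere in the transcript occurred in 3 members and in 4.07% of all transcripts. The sequence AATAAA, the usual signal for polyadenylation, stood after the stop codon in 18 of the 68. It was present in Hist1h1c, Hist1h2be, Hist2h2be and Hist2h3c1 and absent from Hist1h2ap and Hist1h2ao.

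Members resembled each other closely, which limits how far reads can be assigned to a single gene. Between members with coding sequences of equal length, the median identity was 96.4% in H2A, 97.4% in H2B, 97.6% in H3 and 93.9% in H4. The coding sequences of Hist1h2ap and Hist1h2ao were identical over all 393 bases, and so were those of Hist2h2aa1 and Hist2h2aa2, Hist1h4m and Hist1h4n, Hist1h2bq and Hist1h2br, and Hist2h3c1 and Hist2h3c2. In 27 members over 50% of all stretches of 100 bases also occurred in another gene, and in 7 members none did. The share was 92.2% in Hist1h2ap and 92.7% in Hist1h2ao, 5.07% in Hist1h1c and 0.00% in Hist2h2be. Values of single members with near-identical copies are uncertain where the counting could split reads, and the counting was not stated to use strand.

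The promoters of 63 members were matched in RefSeq (GRCm38.p6, 250 bases before to 50 after each start) by name, strand and position. CCAAT, a box bound by the factor NF-Y, was present on either strand in all 51 matched promoters of classes H1, H2A, H2B and H3 and in 3 of 12 of class H4, against 37.4% of all 32851 promoters. TATAAA, the core of the TATA box, was present on either strand in 55.6% of the 63 and in 13.6% of all promoters. The letters were searched over the whole stretch without regard to distance from the start, so a match need not be a TATA box. A member of each kind is printed with CCAAT, or ATTGG where the box lies on the other strand, and TATAAA or TTTATA in capitals. Hist1h2ao is shown for H2A (chr13:21810117-21810416, plus strand) and Hist1h4i for H4 (chr13:22041313-22041612, minus strand).
Hist1h2ao: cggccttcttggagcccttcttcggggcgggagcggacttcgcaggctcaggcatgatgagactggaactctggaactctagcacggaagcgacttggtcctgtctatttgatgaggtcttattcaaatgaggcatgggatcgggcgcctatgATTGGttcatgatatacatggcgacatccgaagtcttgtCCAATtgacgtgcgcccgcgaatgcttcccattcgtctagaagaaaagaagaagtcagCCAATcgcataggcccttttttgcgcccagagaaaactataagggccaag
Hist1h4i: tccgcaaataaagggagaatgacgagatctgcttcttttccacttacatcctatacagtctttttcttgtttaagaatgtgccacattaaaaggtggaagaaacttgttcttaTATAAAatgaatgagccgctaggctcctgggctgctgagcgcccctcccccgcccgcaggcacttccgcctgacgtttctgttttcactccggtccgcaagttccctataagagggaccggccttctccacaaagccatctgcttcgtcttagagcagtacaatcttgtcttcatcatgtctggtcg

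Values are in FPKM, fragments which corrects for gene length and for how much each library was sequenced, so levels of genes of different length can be compared. The aligned sequence was 5.21 to 7.92 gigabases per library and overlapped between all 4 groups. Before the histone genes are described, 9 libraries have to be set apart from their group names. The summed FPKM of 6 macrophage markers was 433 to 498 in N 1, N 2, LMS 2 and LMS 5, 3079 to 3416 in N 3 and LMS 1, 3, 4 and 6, and 1871 to 2020 in all LM and LMA libraries. The sum of 8 T cell markers ran the other way, from 443 to 660 in the first 4 libraries, 7.49 to 85.8 in the next 5 and 66.3 to 134 in LM and LMA. Eif2s3y, a Y-linked gene, was listed at 0 in the first 4 and at 31.0 to 43.0 FPKM in the other 14, which goes against the label female. N and LMS thus each hold libraries of both kinds, and each result below is given with and without them where this matters. N 1 also stood apart in Mki67, a marker of dividing cells, at 5.18 FPKM against 65.3 to 122 in the other 17. In bulk RNA, fewer cells of a type and less RNA per cell cannot be told apart.

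Summed over the 70 genes, the histone FPKM was 110, 489 and 265 in N and 165, 182 and 188 in LM. It was 180 to 207 in LMA, with a median of 196, and 276 to 428 in LMS, with a median of 312. All 6 LMS libraries lay above all LM and LMA libraries, whereas N spanned from below every treated library to above all of them. The log2 difference of the group means on the log scale was 0.87 for LMS against LM, -0.75 for LMA against LMS and 0.12 for LMA against LM. These sums are given with no test. Without Hist1h2ap and Hist1h2ao the sum was 96.8 to 111 in LM, 109 to 127 in LMA and 125 to 216 in LMS, so that LMS 3 at 125.03 fell within the range of LMA, whose highest library held 126.5.

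**Figure D1:**
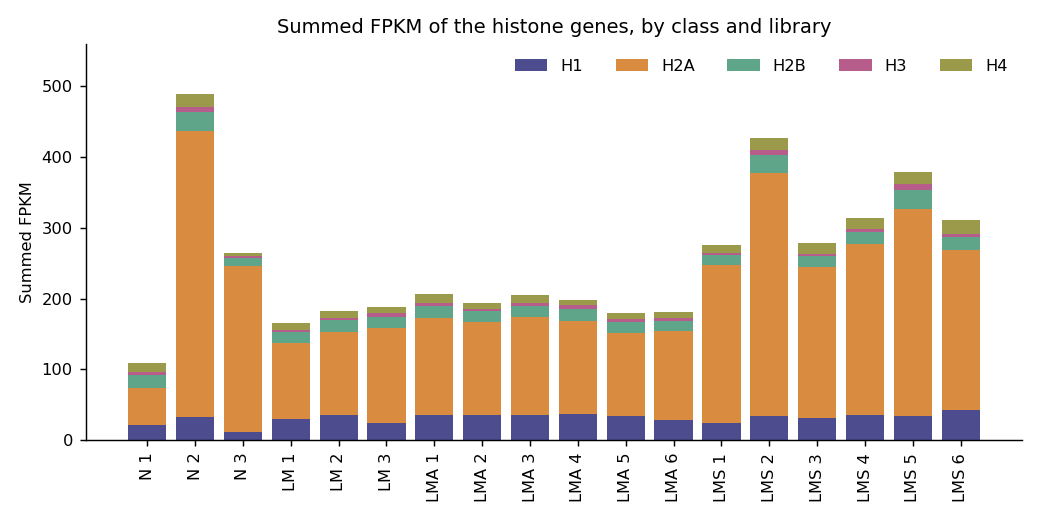
Stacked bars give the summed FPKM of the histone genes in each of the 18 libraries, by class. H2A is the largest class in every bar, from 47.6% in N 1 to 88.3% in N 3, and the LMS bars (276 to 428) stand above the LM and LMA bars (165 to 207).

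Class H2A held 47.6% to 88.3% of the summed histone FPKM, H1 4.50% to 19.3%, H2B 4.17% to 17.7%, H4 1.97% to 12.5% and H3 1.06% to 2.92%. Hist1h2ap and Hist1h2ao alone made up 28.1% to 57.0% of the sum. Averaged over the 18 libraries, 6 members reached 10 FPKM, 17 lay between 1 and 10, and 5 were under 0.1 FPKM. Hist1h2aa was listed at 0 in all 18 libraries.

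For the tests, genes needed a mean of at least 0.5 FPKM, and 39 of the 70 members passed, 5 of H1, 16 of H2A, 8 of H2B, 2 of H3 and 8 of H4. Of these, 27 had a mean of at least 0.5 FPKM in all 4 groups and 1 in a single group. Hist1h2be passed through N and LMS, since all its LM and LMA libraries lay under 0.5 FPKM. Hist1h4c had a mean under 0.5 FPKM in LMA. Calls of these members below rest on the groups that let them pass. The 31 members that did not pass had means of 0 to 0.474 FPKM, and 7 of them reached 0.5 in the mean of some group. limma was fitted to log2(FPKM + 0.5) of 11457 genes, with adjustment over all of them by the Benjamini-Hochberg method, and a member was called at an adjusted p under 0.05. Fold changes on this scale understate the change of genes near 0.5 FPKM. Members are grouped below by their place in the nucleosome.

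The highest H2A members were Hist1h2ap (chr13:21833026-21833507, minus strand) and Hist1h2ao (chr13:21810465-21810944, plus strand). Hist1h2ap measured 17.7, 152 and 91.3 FPKM in N, 41.4, 44.4 and 45.9 in LM, 42.2 to 48.1 with a median of 44.6 in LMA, and 87.4 to 126 with a median of 94.2 in LMS. The LM and LMA libraries lay close together, all LMS libraries lay above them, and the N libraries lay on both sides. Hist1h2ao measured 13.1, 101 and 59.7 FPKM in N, 27.1, 30.1 and 30.5 in LM, 28.5 to 32.9 with a median of 30.3 in LMA, and 58.5 to 86.0 with a median of 62.2 in LMS. The ratio of Hist1h2ao to Hist1h2ap was 0.638 to 0.737 over all 18 libraries, so the copies gave the same picture and are not independent of each other.

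Within LMS the level of Hist1h2ap followed the kind of library. It was 126 and 119 FPKM in LMS 2 and LMS 5 and 87.4 to 94.5 in LMS 1, 3, 4 and 6. N 2, which resembled the former, measured 152, and N 3, which resembled the latter, measured 91.3. N 1 had the lowest level of all, 17.7. Mki67 was ordered alike, at 112 to 122 FPKM in N 2, LMS 2 and LMS 5, 87.9 to 99.6 in N 3 and LMS 1, 3, 4 and 6, 65.3 to 72.3 in LM and LMA, and 5.18 in N 1. Another gene of dividing cells, Top2a, which encodes the topoisomerase that untangles replicated DNA, had another order, with 49.5 to 57.3 FPKM in N 2, LMS 2 and LMS 5, 92.0 to 101 in N 3 and LMS 1, 3, 4 and 6 and 72.7 to 83.9 in LM and LMA. The part of cell make-up and of the dividing share of cells in these levels was not tested.

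The next H2A members were Hist1h2ag at a mean of 17.5 FPKM over all libraries, Hist1h2ah at 13.5 and Hist1h2aj at 12.6. Hist1h2ag measured 3.51, 46.7 and 25.3 FPKM in N, 6.45, 7.78 and 12.5 in LM, 11.3 to 13.9 in LMA and 15.1 to 36.8 in LMS. LM and LMA overlapped here and LMS lay above both. Hist1h2aj is an unprocessed pseudogene in M21, and 91.7% of its stretches of 100 bases occur in other genes, so its 7.03 to 10.7 FPKM in LMA and 14.7 to 23.3 in LMS may include reads of other H2A genes. Hist1h2ai, Hist1h2an and Hist1h2ae, between 0.586 and 8.12 FPKM in every library, had all LMS libraries above all LM libraries. Hist2h2aa1 measured 0.90, 10.1 and 2.54 FPKM in N, 8.01, 6.79 and 8.38 in LM, 0 to 9.03 with a median of 7.46 in LMA, and 0.331 to 8.45 with a median of 3.51 in LMS. In FPKM, only LMA 5 was listed at 0 among the 18 libraries. The bases aligned to Hist2h2aa1, from the deposited coverage, were 0 in LMA 5 and in LMS 1, so coverage and FPKM differed in LMS 1. Its copy Hist2h2aa2 was listed at 0 in 11 of 18.

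**Figure D2:**
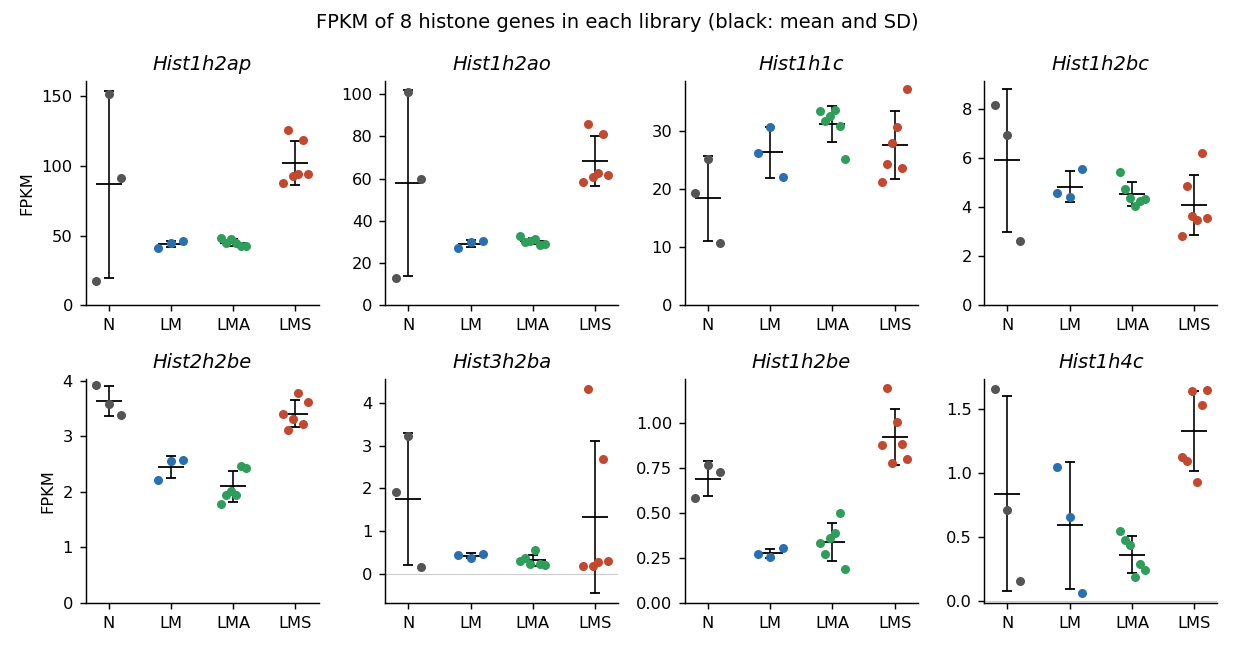
Each point is the FPKM of a histone gene in a library, with mean and SD of the group in black. Hist1h2ap and Hist1h2ao separate LMS from LM and LMA (87.4 to 126 against 41.4 to 48.1 FPKM for Hist1h2ap), while Hist1h1c overlaps between these groups and Hist3h2ba is high in 4 libraries of N and LMS.

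Of the linker histones, Hist1h1c (chr13:23738808-23740367, plus strand), which encodes H1.2, was by far the most abundant. It measured 19.3, 25.2 and 10.7 FPKM in N, 26.1, 30.7 and 22.1 in LM, 25.2 to 33.6 with a median of 32.1 in LMA, and 21.2 to 37.3 with a median of 26.2 in LMS. The LMA libraries all lay above N, although the lowest of them exceeded N 2 by little, and LM, LMA and LMS overlapped. Hist1h1e and Hist1h1d, which encode H1.4 and H1.3, had means of 1.72 and 1.32 FPKM over all libraries, and Hist1h1b and Hist1h1a, which encode H1.5 and H1.1, had 0.639 and 0.564. Hist1h1e reached 3.25, 4.74 and 4.01 in N 2, LMS 2 and LMS 5 and stayed at 0.482 to 2.13 in the other 15 libraries. Hist1h1t, the H1 gene of the testis, had a mean of 0.00523 FPKM.

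The H2B members were low. Hist1h2bc (chr13:23684199-23692488, plus strand) had a mean of 4.66 FPKM, Hist1h2bg 3.14, Hist2h2be 2.85, Hist1h2bk 1.09 and Hist3h2ba 0.913. Hist2h2be (chr3:96221119-96223738, plus strand) measured 3.93, 3.59 and 3.39 FPKM in N, 2.22, 2.56 and 2.57 in LM, 1.78 to 2.47 with a median of 1.98 in LMA, and 3.12 to 3.77 with a median of 3.35 in LMS. N and LMS overlapped, and every N and LMS library lay above every LM and LMA library, whichever kind of library it was. The summed FPKM of 6 markers of neutrophils and their precursors split the libraries in the same way and in the opposite direction, at 439 to 519 in LM and 607 to 832 in LMA against 3.36 to 125 in N and 20.4 to 121 in LMS, and its part in this and the next patterns of this kind was not tested. Hist1h2be (chr13:23583742-23621124, minus strand) was low, with 0.582, 0.762 and 0.725 FPKM in N, 0.271, 0.253 and 0.303 in LM, 0.186 to 0.499 in LMA and 0.778 to 1.19 in LMS. Here too every N and LMS library lay above every LM and LMA library, and all LMS libraries also lay above all N libraries.

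Other H2B and H2A genes followed the kind of library rather than the group. Hist3h2ba (chr11:58948920-58949533, plus strand) measured 1.90 and 3.21 FPKM in N 1 and N 2 and 4.32 and 2.70 in LMS 2 and LMS 5, against 0.152 to 0.553 in all other 14 libraries. Its neighbour Hist3h2a measured 5.90 and 3.59 FPKM in N 1 and N 2 and 3.55 and 3.69 in LMS 2 and LMS 5, against 0.896 to 1.60 in the other 14. Hist1h2bc was highest in N 1, at 8.18 FPKM, the library in which Hist1h2ap was lowest. Its level was 2.61 FPKM in N 3, 4.56, 4.40 and 5.56 in LM, 4.04 to 5.44 in LMA and 2.82 to 6.22 in LMS, and all 4 groups overlapped.

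The H3 and H4 members stayed near the limit of what was tested. Hist2h3c1 (chr3:96246685-96248504, plus strand) led H3 with a mean of 0.740 FPKM, and all its stretches of 100 bases occur in another gene. It measured 0.804, 0.974 and 1.04 FPKM in N, 0.520, 0.610 and 0.599 in LM, 0.422 to 0.657 in LMA and 0.816 to 1.05 in LMS. As with Hist2h2be, the N and LMS libraries lay above all LM and LMA libraries, which is again the split of the neutrophil markers. Hist1h3i, Hist1h3d, Hist1h3c and Hist1h3a had means of 0.557, 0.450, 0.444 and 0.404 FPKM, and only the first of them passed the filter.

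Hist1h4i (chr13:22040636-22041362, minus strand) led H4 with a mean of 2.93 FPKM, before Hist1h4n at 2.20, Hist1h4d at 1.20, Hist1h4k at 1.07 and Hist1h4m at 0.910. Hist1h4i measured 3.45, 3.04 and 2.21 FPKM in N, 2.12, 2.87 and 2.22 in LM, 1.95 to 2.81 in LMA and 2.80 to 5.14 in LMS. Hist1h4n measured 1.33, 2.50 and 0.755 FPKM in N, 1.19, 1.91 and 1.63 in LM, 1.15 to 2.59 in LMA and 2.48 to 3.75 in LMS. LMS was the higher group for both, with overlap with LM for Hist1h4i and with LMA for both. Hist1h4c measured 1.65, 0.705 and 0.152 FPKM in N, 1.05, 0.654 and 0.0626 in LM, 0.183 to 0.546 in LMA and 0.925 to 1.65 in LMS, which left LMA and LMS without overlap.

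**Figure D3:**
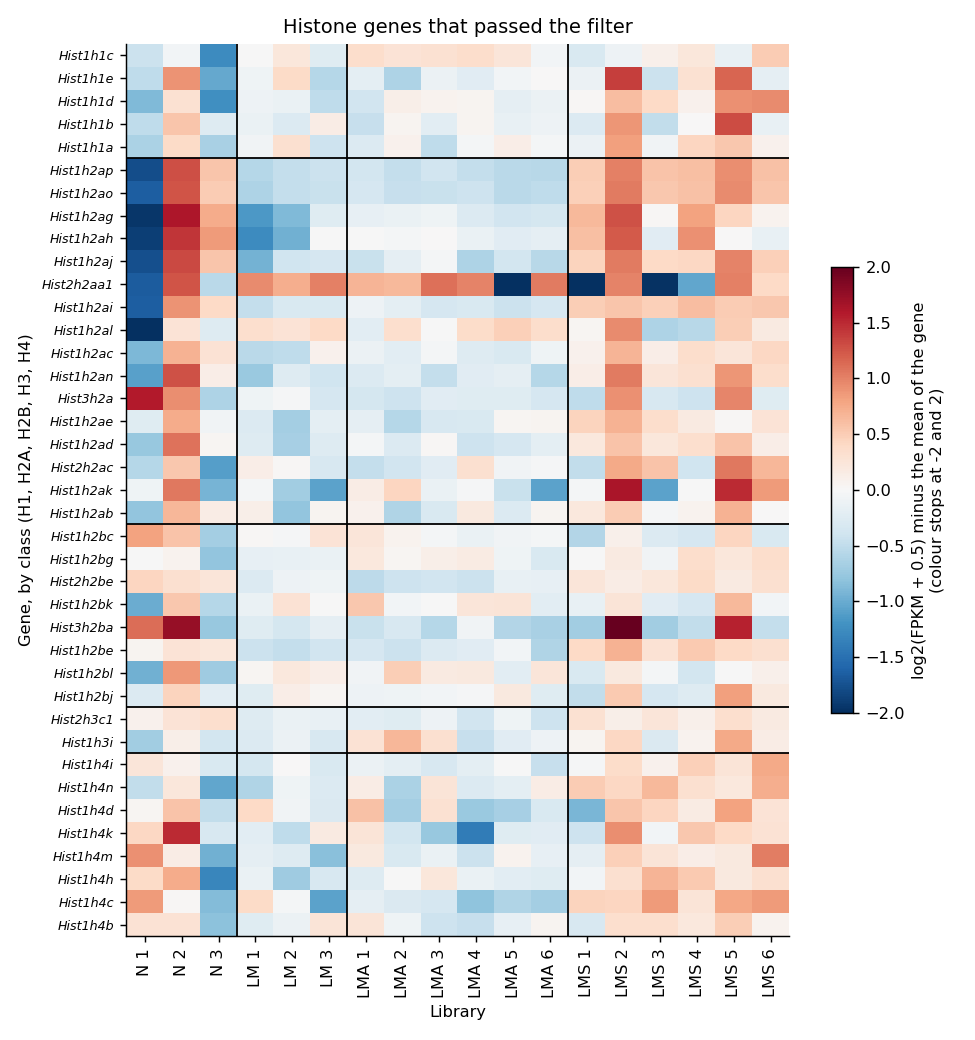
Each cell is log2(FPKM + 0.5) of a histone gene in a library minus the mean of that gene over the 18 libraries, for the 39 genes that passed the filter, ordered by class. Most H2A rows are low in N 1, high in N 2 and higher in LMS than in LM and LMA, and Hist2h2aa1 is low in LMA 5.

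LMA against LMS compares the 2 antibodies. Of the 39 members, 12 were lower in LMA and 0 were higher, or 30.8%, while 30.7% of all 11457 genes were called (19.3% lower and 11.3% higher). The share of members called was that of all genes, and all 12 called were lower. Over the 39 tested, 33 log2 fold changes were negative and 6 positive, and 39.8% of all genes were positive. The 12 are not all separate measures, since Hist1h2ap and Hist1h2ao have identical coding sequences and Hist1h2aj shares stretches with Hist1h2ai. Stretches shared with any other gene, called or not, reached 100% in Hist2h3c1. The shared part was 91.7% in Hist1h2aj, 88.4% in Hist1h2ai, 83.3% in Hist1h2an and 80.7% in Hist1h4n. It was 0.00% to 30.7% in Hist2h2be, Hist1h2be, Hist1h4c, Hist1h4i and Hist1h2ae. The log2 fold change was -1.16 (SE 0.34, limma adjusted p = 0.0158) for Hist1h2ap and -1.14 (SE 0.32, limma adjusted p = 0.0130) for Hist1h2ao. Outside this pair, the fall on the log2 scale was 1.08 in Hist1h4c and 1.00 in Hist1h2aj. It was 0.54 to 0.82 in Hist1h2ai, Hist1h2an, Hist1h2be, Hist2h2be, Hist1h4n, Hist1h2ae and Hist1h4i. Hist1h4c and Hist1h2be had means under 0.5 FPKM in LMA and passed the filter through other groups. Their calls here are not support on their own. Hist2h2be, with no stretch shared with another gene, fell by 0.59 (SE 0.08, limma adjusted p = 3.6e-05), and Hist2h3c1 fell by 0.46. The log2 fold change of Hist1h1c was 0.20 (SE 0.18, limma adjusted p = 0.439). In 12 members, or 30.8%, all LMA libraries lay below all LMS libraries, against 17.5% of all genes and 29.9% in either direction. The median log2 fold change was -0.49 over the members tested and -0.12 over all genes tested.

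The direction of this comparison for Hist1h2ap was the same with either kind of LMS library left out. These library sets were chosen after the data were seen. All LMA libraries, at 1879 to 2020, lay between the 2 kinds in summed FPKM of the macrophage markers. Cell make-up was therefore not held fixed in either fit. Without N 1, N 2, LMS 2 and LMS 5, which leaves N 3 as the lone N library, Hist1h2ap had a log2 fold change of -1.03. Without N 3 and LMS 1, 3, 4 and 6, the log2 fold change of Hist1h2ap was -1.43 (limma adjusted p = 0.0266). There were 21 lower members and 1 higher one, and 9 of the 12 members called above were called again. Both fits reuse libraries of the main fit, so they are not separate support for it. In these fits 72.0% and 78.7% of all genes were called, above the 48.7% and 56.4% of members. Leaving out LMA 2 or LMS 2 lowered the count from 12 to 7, with 27.2% and 29.1% of all genes called.

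LMS against LM asks what followed the CD152 doses after LPPC/mp. Higher in LMS were 7 of 39 members, or 17.9%, and 0 were lower, against 21.3% of all genes called, 13.3% higher and 7.96% lower. The 7 were Hist1h2ao, Hist1h2be, Hist1h4n, Hist1h2ae, Hist1h4i, Hist2h2be and Hist2h3c1. The largest log2 fold change among them was 1.20 (SE 0.40, limma adjusted p = 0.0413) in Hist1h2ao, and the smallest was 0.40 in Hist2h3c1 and in Hist2h2be. Hist1h2be differed by 0.87 (SE 0.14, limma adjusted p = 0.000376), but it passed the filter only through N and LMS, so its call is not support on its own. Hist1h2ap, with a log2 fold change of 1.20, missed the threshold at a limma adjusted p of 0.0527, although all 6 LMS libraries lay above all 3 LM libraries. This was so for 17 members, or 43.6%, and for 19.2% of all genes, with 32.8% of all genes without overlap in either direction. The median log2 fold change was 0.46 over the members tested and 0.10 over all genes tested.

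The calls changed with the fit. With the replicate number as a block, 1 of the 7 was called, Hist1h2be, and the limma adjusted p of Hist1h2ao became 0.0798. In that fit 16.6% of all genes were called, against 21.3% in the main fit. Without LM 1, LM 2 or LM 3 the count was 2, 4 and 3, with 14.2%, 15.3% and 14.5% of all genes called. The fit without N 1, N 2, LMS 2 and LMS 5 called 19 members higher and 3 lower, with 68.1% of all genes called. The fit without N 3 and LMS 1, 3, 4 and 6 called 23 higher and 0 lower, with 75.9% of all genes called. Hist1h2ap was higher in LMS by 1.06 and by 1.47 on the log2 scale in these fits (limma adjusted p = 0.0407 in the latter). The library sets were chosen after the data were seen and reuse libraries of the main fit, so they are not separate support.

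**Figure D4:**
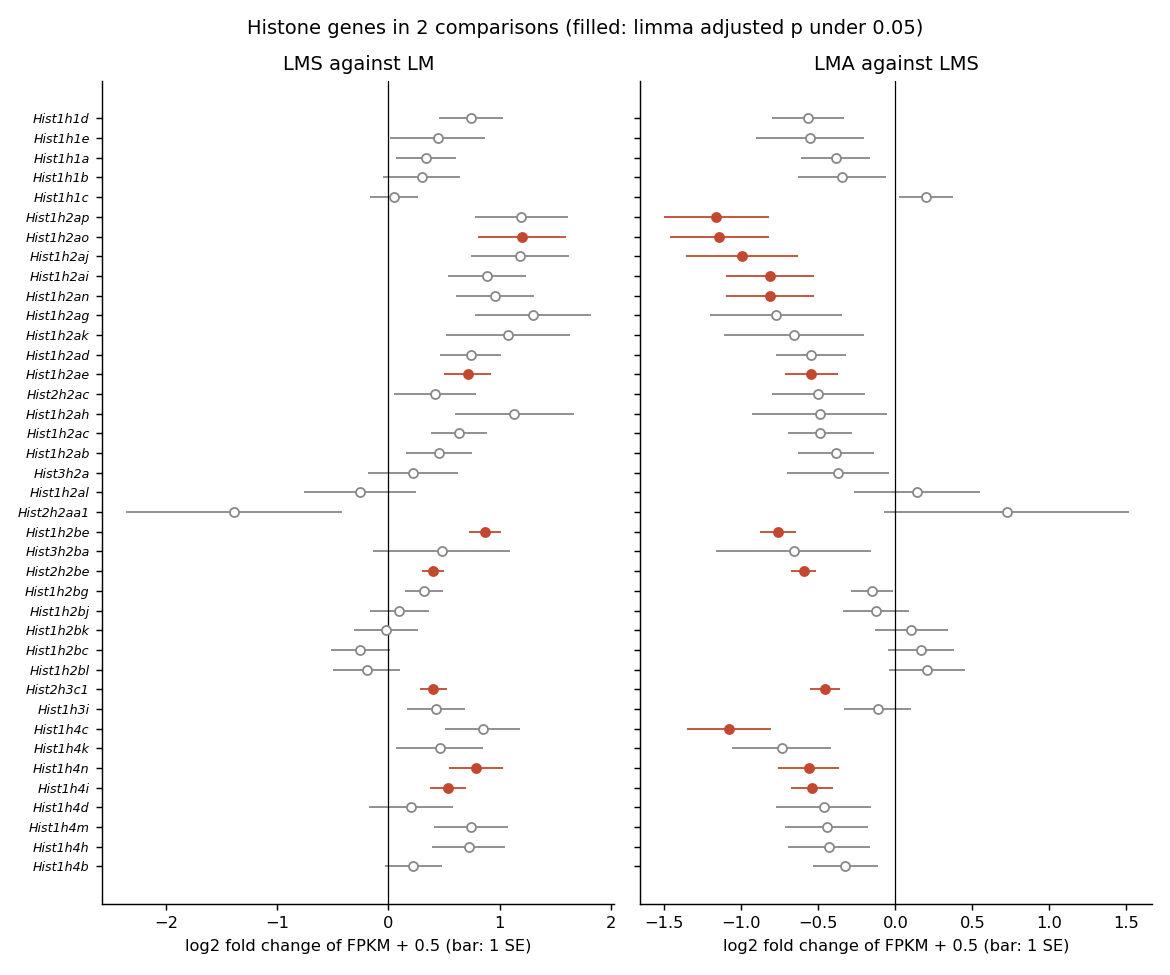
Points give the log2 fold change of FPKM + 0.5 of the 39 tested histone genes and bars 1 SE, with filled points at a limma adjusted p under 0.05. In LMS against LM 7 points are filled, all to the right of 0, and in LMA against LMS 12, all to the left.

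LM against N asks what LPPC/mp itself changed. Lower in LM were 3 of 39 members, or 7.69%, and 0 were higher, against 25.1% of all genes called, 15.8% lower and 9.22% higher. The 3 were Hist1h2be with a log2 fold change of -0.61 (SE 0.17, limma adjusted p = 0.0135), Hist2h2be with -0.49 (SE 0.11, limma adjusted p = 0.00602) and Hist2h3c1 with -0.42 (SE 0.14, limma adjusted p = 0.0397). All LM libraries lay below all N libraries for these 3, against 20.4% of all genes, and above them for 1 member, Hist1h2al, against 13.2% (33.7% in either direction). Hist1h2be passed the filter only through N and LMS, so its call here and in LMA against N is not support on its own. Hist1h2ap had a log2 fold change of -0.51 (SE 0.48, limma adjusted p = 0.439). The median log2 fold change was -0.24 over the members tested and -0.11 over all genes tested. The calls depended on the fit. None of the 3 was called with sample weights or with the 2 groups alone, where 58.7% and 0.48% of all genes were called. Hist2h3c1 was also lost with the replicate block, the TPM scale and median of ratios scaling, and without N 2 or any 1 LM library. Without N 1, N 2 or N 3, 12, 5 and 10 members were called, with 17.9%, 17.5% and 58.2% of all genes called.

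LMA against N gave the same 3 lower members and 1 higher, Hist1h1c, together 4 of 39 or 10.3%, against 35.4% of all genes called (21.8% lower and 13.6% higher). For the same 4 the groups did not overlap, against 30.3% of all genes (18.5% below and 11.8% above). The 2 comparisons share the N libraries. Hist1h1c was higher by 0.82 on the log2 scale (SE 0.22, limma adjusted p = 0.00837). It was higher by 1.499 without N 1, N 2, LMS 2 and LMS 5, where N 3 is the lone N library and is taken to vary like the other groups, and by 0.48 without N 3 and LMS 1, 3, 4 and 6 (limma adjusted p = 7.62e-05 and 0.00608). With sample weights its log2 fold change was 0.42 and the call was lost (limma adjusted p = 0.345), as were those of Hist1h2be and Hist2h3c1. In LMA against N, the log2 fold change was -0.68 (SE 0.10, limma adjusted p = 9.68e-05) for Hist2h2be, -0.51 for Hist1h2be and -0.47 for Hist2h3c1. Median log2 fold changes were -0.19 over the members tested and -0.13 over all genes tested. Without N 1, N 2 or N 3 the count was 13, 7 and 11, or 33.3%, 17.9% and 28.2% of members, with 23.2%, 23.5% and 66.0% of all genes called.

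No member was called in LMS against N, where 0% of all genes were called by limma, with 4 members and 507 genes at an unadjusted p under 0.05. The smallest were Hist1h1d, with a log2 fold change of 1.10 (SE 0.29, limma adjusted p = 0.617), and Hist1h4n, with 0.90 (SE 0.24, limma adjusted p = 0.617). The N values of 0.423, 1.60 and 0.224 FPKM for Hist1h1d overlapped the 1.22 to 2.77 in LMS through N 2. Hist1h2be was the 1 member tested with all LMS libraries above all N libraries, against 0.096% of all genes (0.393% below and 0.489% in either direction). Without N 1, N 2, LMS 2 and LMS 5, 5 members were called higher, Hist1h1c, Hist1h1d, Hist1h2bg, Hist1h4h and Hist1h4n, with 5.26% of all genes called and N 3 as the lone N library. In that fit, the log2 fold change of Hist1h2ap was 0.01 (limma adjusted p = 0.955).

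No member was called in LMA against LM either, with 0% of all genes called by limma, 0 members and 133 genes at an unadjusted p under 0.05, and 0 members without overlap between the groups, against 6.25% of all genes (2.43% above and 3.82% below). The smallest p values among members were those of Hist2h2be, with a log2 fold change of -0.19 (SE 0.10, limma adjusted p = 1.00), and Hist1h2ah, with 0.64 (SE 0.54, limma adjusted p = 1.00). The SE of 0.42 for Hist1h2ap, with a log2 fold change of 0.03, does not show that the level was the same. The replicates of LM and of LMA were close, with SDs of 2.30 and 2.47 FPKM around 43.9 and 45.0.

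The genes that act on histone mRNA and histone protein were counted from lists. Of 18 genes for histone mRNA processing, 6 were lower in LMA than in LMS and 0 higher, or 33.3% against 19.3% of all genes lower. In LMA against N 4 were lower, or 22.2% against 21.8% of all genes, a share near that of all genes. Those lower in both were Casp8ap2, which is needed for histone gene expression, with 4.14 FPKM in LMA, 6.51 in LMS and 6.89 in N on average, Srrt, which binds the mRNA cap complex, with 21.8, 40.6 and 40.3, and Cpsf1, a subunit of the cleavage factor, with 19.2, 22.9 and 23.4. Upf1, a helicase of mRNA decay, was lower in LMA than in N, and Ncbp2 and Cramp1l had log2 fold changes of -0.59 and -0.27 in LMA against N (limma adjusted p = 0.0619 and 0.0686). Slbp measured 59.2, 56.1 and 59.9 FPKM in N 2, LMS 2 and LMS 5 and 23.1 to 29.9 in the other 15 libraries. The 3 libraries high in Slbp had the 3 highest histone sums, 489, 428 and 379, and summed FPKM of 6 erythroid markers of 43042 to 50531 against 72.3 to 4175 elsewhere, and the part of erythroid cells was not tested.

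Of 19 histone chaperones, which hand histones to DNA, 4 were lower in LMA than in LMS, or 21.1% against 19.3% of all genes, a share near that of all genes, among them Hira at 6.74 against 11.8 FPKM and Asf1a at 6.62 against 9.49. In LMA against N, Hira was lower and Hat1, the acetylase of new H4, was higher, while Asf1a, Daxx, Rbbp4 and Nap1l1 were not called. Of 10 replication-independent histone genes tested, which are read throughout the cell cycle, H2afx was lower in LMA, at 23.2 FPKM, than in LMS, at 40.6, and than in N, at 38.4. H2afy was lower in LMA than in N, and H3f3b, H1f0 and H3f3a were not called in LMA against N. H1fx was higher in LMA than in LMS, at 0.859 against 0.462 FPKM, with overlap between the libraries. It had means under 0.5 FPKM in N and LMS and passed the filter through LM and LMA. Its call is therefore not support on its own.

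Of 36 genes of S phase and replication, 4 were lower and 1 higher in LMA than in LMS, or 11.1% and 2.78%. Of all genes 19.3% were lower and 11.3% higher there. In LMA against N, 7 of the 36 were higher, among them Cdt1, Cdc45, Prim2, Gins2 and Lig1, and 0 were lower. The higher share was 19.4%, against 13.6% of all genes. The summed FPKM of the list was 321 in N 1 but 902 and 1014 in N 2 and N 3, both above the 823 to 885 in LMA. Of 20 genes of G2 and mitosis, 0 were called in LMA against LMS, where 30.7% of all genes were called. Tpx2 and Bub1 were higher in LMA than in N, or 10% of the list against 13.6% of all genes. Aurkb, Top2a, Cdca8 and Bub1b were not called in LMA against N. Median log2 fold changes in LMA against LMS were -0.55 over 16 H2A and -0.50 over 8 H4 genes, -0.39 over 5 H1, -0.29 over 2 H3 and -0.14 over 8 H2B, -0.06 over the genes of S phase and -0.25 over those of G2 and mitosis. In LMA against N, the H2A median was -0.28 and the medians of S phase and of G2 and mitosis were 0.40 and 0.88. N 1 alone was low in the summed FPKM of G2 and mitosis, at 61.5, while N 2 at 603 lay within and N 3 at 888 above the 590 to 642 in LMA. Whether these medians differ was not tested.

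**Figure D5:**
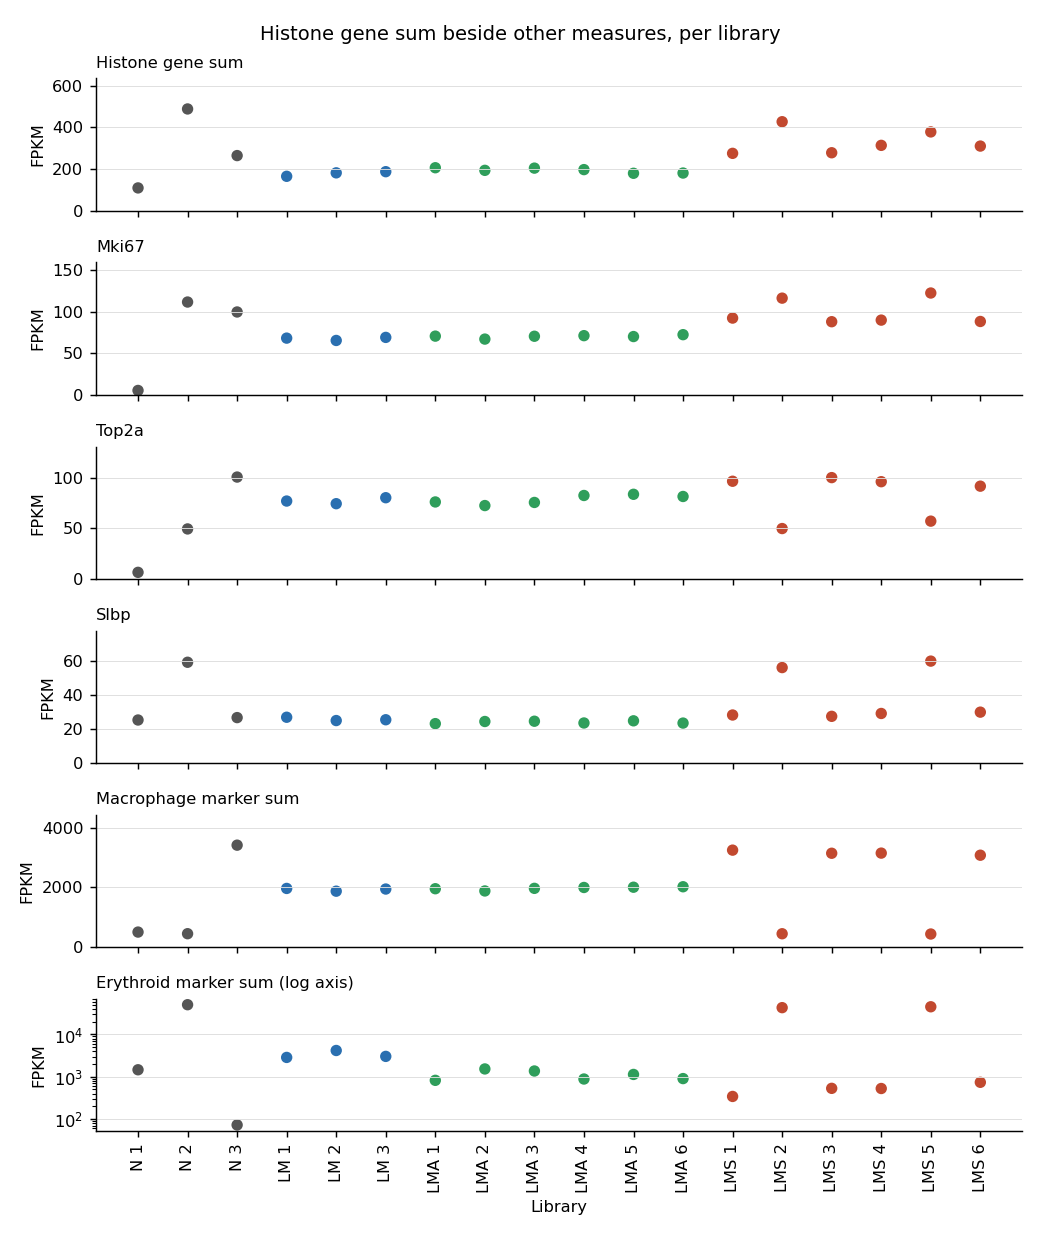
Panels give FPKM in each library of the histone sum, Mki67, Top2a, Slbp, 6 macrophage markers and, on a log axis, 6 erythroid markers, coloured by group. N 2, LMS 2 and LMS 5 have the highest histone sums (379 to 489) together with high Slbp and erythroid markers, and N 1 has the lowest histone sum (110) and the lowest Mki67 (5.18).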

How the data were processed

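RNA of 18 spleen libraries was sequenced by the authors on an Illumina NovaSeq instrument. Per their methods, the authors turned estimated raw counts into FPKM, and they deposited 1 table for each library, unpooled. The submitters' processing notes name mm10 and GATK 4.2, and no source used here names the aligner or the counting tool. The protocol labels describe melanoma tumours, whereas the tissue label and the study name spleen. The deposited coverage signal was used for its ratio to FPKM, which gave the aligned gigabases, and for the bases aligned to Hist2h2aa1. The deposited TPM column was treated as a score and not used, since it covers assembled loci too. The tables give no counts, so no counting intervals were computed.

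Groups and replicate numbers came from the labels. Tested were protein-coding genes of GENCODE M21 and all members with a mean of at least 0.5 FPKM, by limma 3.58.1 (R 4.3.3; lmFit, eBayes with trend) on log2(FPKM + 0.5) with 4 groups and Benjamini-Hochberg adjustment. On simulated data with 200 of 11457 genes changed, LMA against LMS recovered 63.5% at a log2 change of 1 and 86.0% at 2. LMA against N recovered 58.5% and 82.0%, and LM against N 40.0% and 76.5%. The simulated spread was independent between genes and held no kinds of library, so recovery in the real data can differ. The main fit used no pairing, and the replicate number entered only as a block over all groups in an alternative fit. No label says that same-numbered libraries share an animal or a day. Their deviations correlated at 0.22 to 0.43 in LMS against LM and at -0.64, 0.88 and 0.91 in LMS against N. N 1 and LMS 1, the pair at -0.64, were of different kinds. Alternatives were other pseudocounts, filters, scalings (median of ratios, and FPKM rescaled to TPM over reference genes), the 2 groups alone, sample weights, the block, leaving out each library, and 2 library sets chosen after the data were seen. Named are the 5 highest members of each class, up to 10 called members in each direction, the 2 smallest p where none was called, and copies with identical coding sequence. Of each other list, up to 6 genes with the smallest p in LMA against N are named, and 1 of these is not reported here. Hist3h2a, Hist1h4h, Hist1h4b, Hist1h2al, Hist1h1t and Hist1h2aa were named after their values were seen. Members and lists were chosen with earlier results of these data known. Python 3.11.15, pandas 2.3.3 and matplotlib 3.10.9 were used.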

Additional observations from a re-analysis of the deposited data

Results flagged for a closer look

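In LMA and LMS, the groups of 6, the highest and the lowest library were compared with the rest for the members named and for the sums, 86 groups of values in all, of which chance would flag about 1 in 20. In LMA 5, Hist2h2aa1 was listed at 0.00 FPKM against 6.42 to 9.03 in the other 5 LMA libraries. Its copy Hist2h2aa2, with the same coding sequence, was at 0 there too, and it was highest in LMA 4 at 1.42 FPKM against 0 to 0.388 in the others and in LMS 6 at 0.553 against 0 to 0.0985. In LMA 6, Hist1h1c was lowest at 25.2 FPKM against 30.9 to 33.6, and with it the H1 sum at 28.8 against 34.5 to 37.2. The sum of the 2 Hist3 genes was highest in LMA 4 at 1.86 FPKM against 1.39 to 1.57.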

How the results depend on the processing

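Of the 120 recounts of called members under an alternative, 85 stayed within 1.5 times the count reported, 23 rose and 12 fell beyond that. In LM against N the count of 3 became 1 with a mean of at least 1 FPKM (25.9% of all genes called). It became 0 with the 2 groups alone (0.48% of all genes) and 9 with sample weights (58.7%), none of them the 3 reported. When N 3 and LMS 1, 3, 4 and 6 were left out it was 12 (76.8%). The fit without N 1, N 2, LMS 2 and LMS 5 leaves N 3 as the lone N library, so its counts are left out here. In LMA against N the count of 4 became 2, 7, 20 and 13 with the same minimum, the weights and these library sets. In LMS against N the count of 0 became 3 with weights, or 7.69% of members, with 59.4% of all genes called. In LMS against LM the count of 7 became 4 with median of ratios scaling (19.5% of all genes called) and 4 on the TPM scale (16.9%). It became 13 with the 2 groups alone (17.1%), 24 with weights (69.3%) and 1 with the replicate block (16.6%). Without N 3 and LMS 1, 3, 4 and 6 it was 23 (75.9%). In LMA against LMS the count of 12 became 7 with median of ratios scaling, 22 with weights, and 19 and 22 with the library sets. The cause was not tested. Leaving out 1 library gave 2 to 12 calls in LM against N, 4 to 13 in LMA against N, 0 to 2 in LMS against N, 2 to 7 in LMS against LM, 7 to 10 in LMA against LMS, and 0 in LMA against LM. In the same order, the shares of all genes called were 15.5% to 58.2%, 23.2% to 66.0%, 0% to 33.4%, 14.2% to 21.1%, 26.7% to 30.2% and 0%. The replicate block moved no other count by over 1.5 times.

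Without N 1, N 2, LMS 2 and LMS 5 the log2 fold change turned positive in LM against N for Hist1h2bc (0.77), Hist3h2ba (0.50), Hist1h4h (0.91) and Hist3h2a (0.46), and in LMA against N for Hist1h2bc (0.69), Hist1h4h (1.20) and Hist1h4b (0.68). In LMS against LM that of Hist3h2ba became -0.33 there and -0.33 with sample weights. Median of ratios scaling moved the median of all genes by 0.11 in LM against N, 0.14 in LMA against N and 0.11 in LMA against LMS, and split the LM against N calls into 1 higher and 2 lower. The tables hold no counts, so depth enters only as aligned gigabases.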
